A study of Mus musculus with 2 samples.

Results

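MAP kinases and the MAP2 kinases that switch them on were described by 9 mouse genes, Mapk3, Mapk8, Mapk9 and Mapk14 for the kinases and Map2k1, Map2k3, Map2k4, Map2k6 and Map2k7 for their activators. They were chosen by name, with earlier results of these data known, and read through every probe listed under a RefSeq accession of one of them. All 9 were found, with 15 probes, among 21368 genes that could be named on the array. Each of the 15 probes was well above background on both arrays, so no member was lost to a filter on dim signals and all 9 belong to the 14004 genes called measured here.

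The study asked which signalling accompanies remodelling of the heart, and measured total RNA of mouse heart on 2 one-colour Agilent arrays, 1 per genotype. The control sample was of C57BL6 background with no transgene named. The other sample, called WRN-K577M or transgenic below, was of the same background and came from the line 5025Wcl/Mmmh. That line is a B6.Cg-Tg strain which carries the transgene CAG-WRN*K577M. The transgene is driven by CAG, a promoter active in most cell types and not restricted to heart muscle. It encodes WRN, a RecQ DNA helicase lost in Werner syndrome, with a substitution in the helicase domain, and it was read in a single transgenic line. The titles of the control and transgenic samples share a suffix, ND, whose meaning is not stated. Beyond it the labels name no treatment, age or sex, and leave unsaid if a sample was a single heart or several pooled. Each genotype has 1 array, so the genotypes could not be tested against each other, and no value below has a replicate check.

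MAP kinase modules are relays of protein kinases in which a MAP3 kinase phosphorylates a MAP2 kinase, which in turn phosphorylates the MAP kinase on a threonine and a tyrosine of its activation loop. In heart muscle the ERK, p38 and JNK modules respond to growth factors, stretch and stress. Their output is set mainly by phosphorylation, which an RNA array does not read.

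A level is the log2 processed signal minus the 75th percentile of its array, and a log2 ratio subtracts the control's level from that of the transgenic heart. A gene takes the value of its brightest probe, judged by the mean level of both arrays. Levels of different probes are not compared with one another, since each probe binds its target with its own strength. The members did not shift as a group: their median log2 ratio was -0.086, beside 0.020 over all measured genes. Of the 9 members, 2 differed by at least 1.5-fold in either direction, beside 15.9% of all measured genes. Both also passed 2-fold, 1 higher in the transgenic heart and 1 lower. Over all measured genes 1.94% passed 2-fold upward and 3.46% downward, and at 1.5-fold these shares were 6.76% and 9.15%. The 2 members past 2-fold were MAP2 kinases, Map2k7 upward and Map2k6 downward, and all 4 MAP kinases lay within 1.5-fold by their brightest probes. Where the probe brightest on the control array was taken instead, Mapk8 had a ratio of -1.17. By that choice 2 members were at least 1.5-fold lower, beside 9.27% of all measured genes. Measurement error was judged from probes printed at 8 or more spots, whose log2 ratio varied between spots with an SD of 0.22 for dim probes (control level below -2, 31 probes), 0.12 for intermediate (94 probes) and 0.059 for bright ones (130 probes). This spread covers measurement within these arrays only, and every member probe was itself read at 1 spot per array. For the member probes the scanner software's own error, carried to the ratio, ranged from 0.20 to 0.31.

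**Figure D1:**
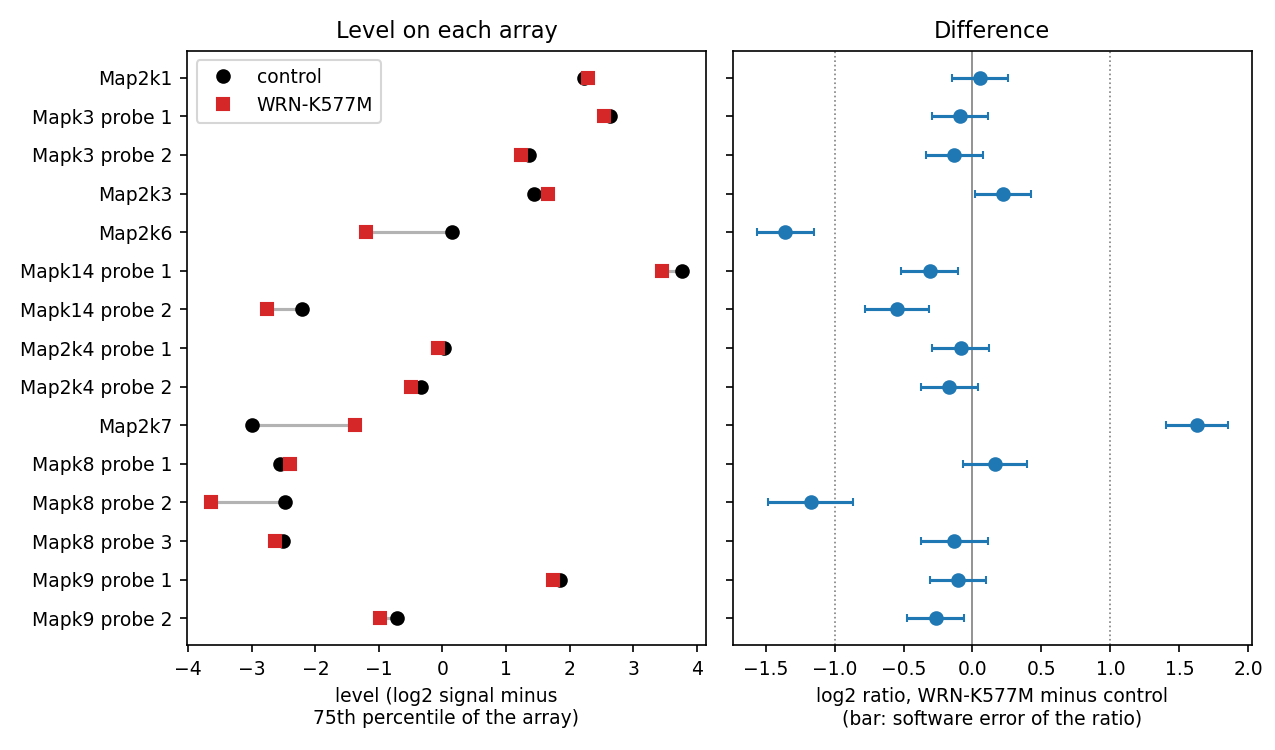
Levels of the 15 member probes on the control array (circles) and the WRN-K577M array (squares), left, and their log2 ratio with the software's error as bar, right, with dotted lines at 2-fold. Map2k6 (-1.36), Map2k7 (1.63) and the second Mapk8 probe (-1.17) lie beyond 2-fold, and the other 12 probes lie within 1.5-fold.

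The p38 module was read through its MAP kinase Mapk14 (p38-alpha) and the activators Map2k3 (MKK3) and Map2k6 (MKK6). The control level of Map2k6 was 0.15 and its transgenic level -1.21. Its log2 ratio was -1.36 with a software error of 0.21, which makes the transgenic signal 2.56-fold lower. Only 216 of the 14004 measured genes had a lower ratio than Map2k6. Among 1703 measured genes of similar brightness (mean level within 0.5), 4.82% were at least 2-fold lower. The gene has a single named probe, listed under 1 of its 8 RefSeq transcripts, and which of the others it detects is not known here. The spots around it on the array had a median log2 ratio of -0.018 (58 spots).

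Map2k3, the other p38 activator of the set, was near equal, at 1.44 on the control array and 1.66 on the transgenic one. Its log2 ratio of 0.22 had a software error of 0.20, and 73.3% of measured genes had a lower one. The ratios of these activators of p38 had opposite signs, with that of Map2k6 well beyond its software error and that of Map2k3 close to its own. The Map2k3 ratio was larger than the SD between spots of bright probes (0.059). Mapk14 was read by 2 probes listed under the same accession. The brighter one went from 3.77 to 3.46 (control to transgenic), a log2 ratio of -0.31 (1.24-fold lower). The dimmer probe went from -2.21 to -2.76, a log2 ratio of -0.55 with a software error of 0.23. Both probes lay below 0, and the dimmer one had a ratio of -0.18 after normexp background correction with its added offset.

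The JNK module was read through Mapk8 (JNK1) and Mapk9 (JNK2), and through Map2k4 (MKK4), which can also phosphorylate p38, and Map2k7 (MKK7), which is specific for JNK. The processed signal of Map2k7 was 31.9 on the control array against 80.8 on the transgenic one, so it was dim in both. After scaling these are levels of -3.00 and -1.38, and a log2 ratio of 1.63 with a software error of 0.23. Map2k7 was thus 3.09-fold higher in the transgenic heart, and 59 of the 14004 measured genes had a higher ratio. Among 1394 measured genes of similar brightness 2.94% were at least 2-fold higher. The unprocessed spot medians were 70.0 and 127 over local backgrounds of 42.0 and 44.0, and the neighbouring spots had a median log2 ratio of 0.14 (58 spots).

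Map2k7 was the member whose size depended most on the treatment of dim signals. Its log2 ratio was 0.92 after normexp, above 1.5-fold and below 2-fold. The stricter filter on dim probes removed Map2k7, which left 0 members at least 1.5-fold higher, beside 5.62% of all genes kept. The gene has a single probe, listed under 1 of its 6 RefSeq transcripts, and which of the others it detects is not known here.

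Map2k4 was near equal by both of its probes. The brighter went from 0.023 to -0.063, a log2 ratio of -0.086, and the dimmer from -0.33 to -0.50, a ratio of -0.17. Mapk9 was also read by 2 probes, listed under different transcripts. The first went from 1.85 to 1.74 (log2 ratio -0.10) and the second from -0.72 to -0.99 (-0.27). Both ratios lay below 0 and within 1.5-fold.

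Mapk8 was dim, and its 3 probes, all listed under one accession, disagreed. The first, brightest by the mean of both arrays, went from a control level of -2.56 to -2.40, a log2 ratio of 0.16. The second went from -2.47 to -3.64, a ratio of -1.17 with a software error of 0.31, and the third from -2.51 to -2.64, a ratio of -0.13. The second alone passed 2-fold, with a processed signal of 16.8 on the transgenic array. Their ratios spanned 1.33, more than in 99.0% of the 3651 genes with several measured probes, for which the median span was 0.17. After normexp the second probe had a ratio of -0.18 and the third 0.034. On the control array alone the second probe was the brightest, and it would then stand for the gene. The mean ratio of the 3 probes was -0.38, the opposite sign of the first probe, so no direction is given for Mapk8.

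The ERK module was read through Mapk3 (ERK1) and its activator Map2k1 (MEK1), and both were near equal. Map2k1 went from 2.23 to 2.29, a log2 ratio of 0.057 that was -0.043 after normexp. Mapk3 had levels of 2.63 and 2.54 by its brighter probe (log2 ratio -0.088) and 1.37 and 1.24 by the dimmer one (-0.13). These ratios were smaller than the software error of 0.20 and lay near the middle of all measured genes, with 37.6% of them below Mapk3 and 54.4% below Map2k1.

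**Figure D2:**
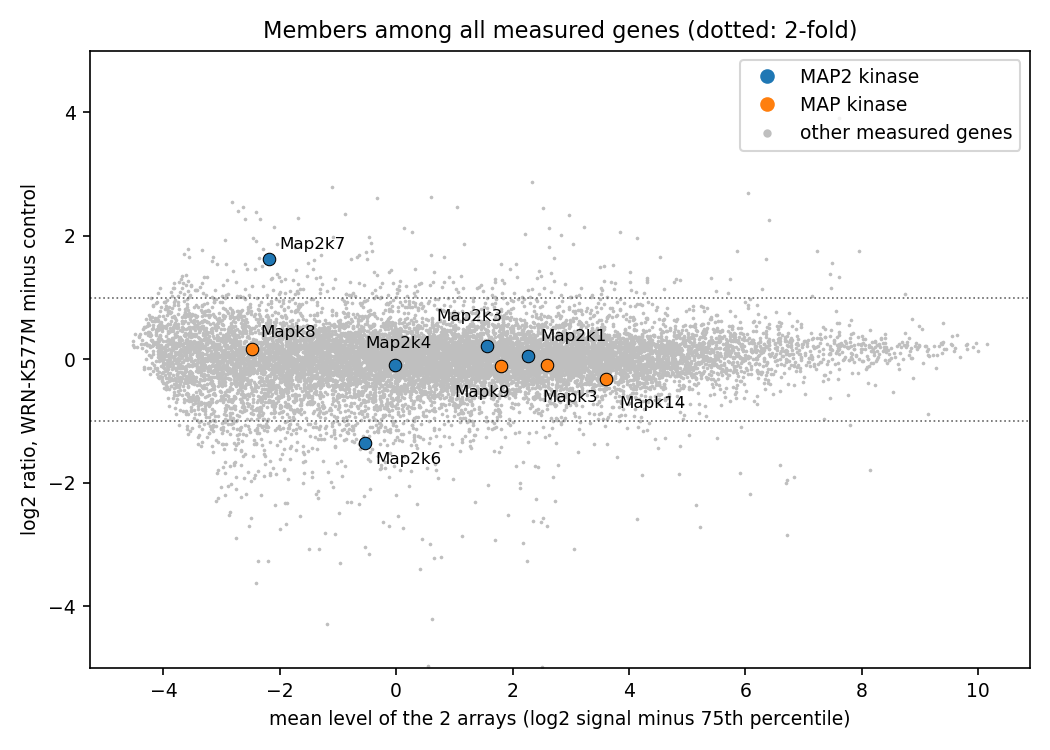
Log2 ratio of each measured gene (grey) against its mean level on the 2 arrays, with the MAP kinases and MAP2 kinases marked and dotted lines at 2-fold; 4 genes beyond 5 log2 units are outside the plot. Map2k7 (1.63) stands at the dim end and Map2k6 (-1.36) at intermediate brightness, and the other 7 members lie inside the main cloud.

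Sequences before the transcription start are shown for the activators past 2-fold and for Map2k3, the near-equal partner of Map2k6. They are the 250 bases before the outermost start in RefSeq on build GRCm38.p6, at chr11:110398852-110399101 for Map2k6, chr8:4238490-4238739 for Map2k7 and chr11:60931804-60932053 for Map2k3, all on the + strand. Capitals mark a GC box, spelled GGGCGG, an element of the factor pair AP-1, spelled TGANTCA, or the letters CCAAT of a CCAAT box, each searched on both strands with no overlap between matches.
Map2k6: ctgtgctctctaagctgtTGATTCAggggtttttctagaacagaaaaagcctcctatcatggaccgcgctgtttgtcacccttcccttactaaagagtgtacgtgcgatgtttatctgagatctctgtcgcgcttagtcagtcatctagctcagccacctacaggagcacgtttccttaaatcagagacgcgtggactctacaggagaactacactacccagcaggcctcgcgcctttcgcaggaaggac
Map2k7: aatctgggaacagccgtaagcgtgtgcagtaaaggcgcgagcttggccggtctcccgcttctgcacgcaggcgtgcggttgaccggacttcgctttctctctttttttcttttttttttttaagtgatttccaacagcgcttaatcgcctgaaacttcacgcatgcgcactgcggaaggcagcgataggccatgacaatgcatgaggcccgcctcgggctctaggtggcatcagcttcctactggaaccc
Map2k3: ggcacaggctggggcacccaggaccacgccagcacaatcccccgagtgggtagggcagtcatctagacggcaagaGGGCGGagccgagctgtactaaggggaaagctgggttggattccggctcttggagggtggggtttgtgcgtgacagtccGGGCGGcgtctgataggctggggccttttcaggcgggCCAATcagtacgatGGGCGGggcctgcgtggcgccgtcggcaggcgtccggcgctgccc
The Map2k6 window held 1 AP-1 element and no GC or CCAAT box, the Map2k7 window none of these, and the Map2k3 window 3 GC boxes and 1 CCAAT box. The GC content was 50.4% for Map2k6, 54.4% for Map2k7 and 67.6% for Map2k3, beside a median of 52.4% over all 32851 windows of this length. Of the 8 members with a window in the table, 5 held a GC box, among them all those of ERK and p38 genes other than Map2k6, and Map2k4, Map2k6 and Map2k7 held none. A GC box stood in 32.7% of all these windows, a CCAAT box in 33.8% (4 of the 8 members) and an AP-1 element in 6.75% (1 of 8). The full set holds every listed start of a gene, whereas each member was read at its outermost start alone, so the shares are a rough guide. A TATA box, spelled TATAAA here, and the MEF2 site were found in no member and in 12.4% and 2.92% of all windows. Map2k6 has 3 starts in the table and Map2k7 has 2, and which start is used in these hearts was not measured. A match is a run of letters and not a measured binding site.

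Around the members, 138 genes of the pathway were listed by role, of which 125 were measured. Their median log2 ratio was -0.0073, with 11 past 1.5-fold upward and 12 downward, beside shares of 6.76% and 9.15% among all measured genes. The medians below leave out genes that were not measured on both arrays.

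Upstream of the members, 22 of 25 MAP3 kinases were measured, with a median of 0.055. Map3k6 (ASK2), a partner of the stress kinase ASK1, went from 2.61 to 3.49, a log2 ratio of 0.87. Map3k20 (ZAK), which reports stalled ribosomes, had a ratio of 0.78 and Map3k15 one of 0.62, so 3 were at least 1.5-fold higher. Taok3 (-0.61) was the single one at least 1.5-fold lower, and after normexp its ratio was -0.081 and that of Map3k15 0.38. Of the Ras group 12 of 14 were measured with a median of -0.076, among them the exchange factor Rasgrp3 (-0.54, and -0.41 after normexp) and the GTPase activator Rasa2 (0.38, and 0.23 after normexp). Of 20 scaffolds and adaptors 18 were measured with a median of -0.13. The beta-arrestins Arrb2 (-0.61, and -0.40 after normexp) and Arrb1 (-0.43) and the MAP3 kinase binding protein Gadd45g (-0.45) had the largest ratios in that list.

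At the tier of the members themselves, all 10 other MAP kinases and both other MAP2 kinases were measured. The MAP kinases had a median of -0.082, led by Nlk (-0.62), Mapk15 (0.53, and 0.34 after normexp) and Mapk4 (0.31). Map2k2 (MEK2), the close relative of Map2k1, had a ratio of 0.097 that was -0.050 after normexp. Map2k5, the activator of ERK5, had -0.28 by its brightest probe and 0.053 by another. None of these 12 genes was 2-fold different, beside 2 of the 9 members and 5.39% of all measured genes.

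Among 17 measured phosphatases that act on MAP kinases the ratios spread widely, with a median of 0.15 that was -0.10 under the stricter filter on dim probes. Dusp1, an early-induced phosphatase of p38 and JNK, went from 4.08 to 2.71, a ratio of -1.37. Dusp2 (-1.29) and the ERK phosphatase Dusp6 (-0.68) were also at least 1.5-fold lower. In the other direction stood Dusp4 (1.93), Ptpn7 (1.54) and Dusp5 (0.72), all dim, and under the stricter filter on dim probes 0 phosphatases were at least 1.5-fold higher. After normexp these 3 had ratios of 0.72, 0.62 and 0.33 and Dusp2 had -0.63, while Dusp1 (-1.40) and Dusp6 (-0.69) stayed near their values.

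Downstream, the p38 substrate kinase Mapkapk3 had a ratio of -0.91, with levels of 2.94 and 2.03, and Mknk2, a kinase of the translation factor eIF4E, had 0.68 in the other direction and Rps6ka2 0.48. The median of the 10 measured downstream kinases was -0.16. Of 22 measured transcription factor substrates, Fos (-2.57), Jun (-0.96) and Ddit3 (-0.96) were at least 1.5-fold lower, and Myc (1.23), Stat3 (0.81) and Mef2d (0.72) at least 1.5-fold higher, with a list median of 0.041. Of 15 measured genes commonly induced by ERK signalling, Etv5, an ETS factor, went from 2.10 to 3.97 (1.87), and the early gene Egr1 from 5.21 to 3.77 (-1.44). The ERK output list had a median of 0.12 and no common direction, with Dusp4 and Dusp5 higher and Dusp6 lower, as given among the phosphatases. Of its 3 genes at least 1.5-fold higher, the stricter filter left 1. Fosl1 stood above background on the transgenic array, where it was dim (level -3.42), but not on the control one. Set against the lowest level well above background on the control array, its transgenic level was 2.48-fold higher.

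**Figure D3:**
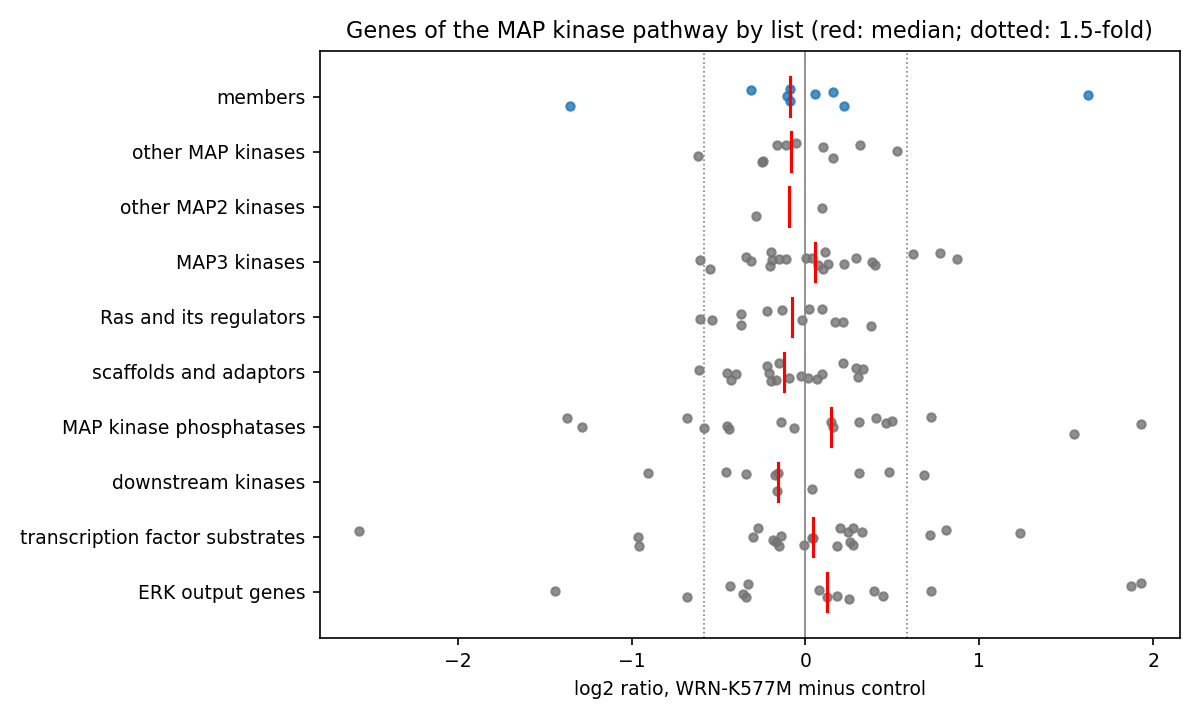
Log2 ratio of each measured gene in the 9 members and the 9 pathway lists, with the median in red and dotted lines at 1.5-fold. The medians lie between -0.16 and 0.15, and the phosphatases, transcription factor substrates and ERK output genes spread most widely.

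The labelled tissue was checked against defining markers: all 13 ventricular cardiomyocyte markers were measured and within 1.5-fold, with a median log2 ratio of 0.13. Markers of other cells differed between the arrays. All 6 atrial markers measured on both arrays passed 2-fold downward, and the summed signal of these dropped from 655 to 157, in units of the array's 75th percentile. The transgenic sum came mainly through a single bright marker, Nppa, with levels of 8.32 and 7.26 (log2 ratio -1.06). The other 5 measured atrial markers had log2 ratios between -9.41 (Sln) and -2.52 (Hamp). The 6 lung markers Sftpc, Sftpb, Sftpd, Sftpa1, Napsa and Ager, of 9 listed, stood above background on the control array but not on the transgenic one. The lung list had 2 markers measured on both arrays, Scgb1a1 with a log2 ratio of -7.78 and Lamp3 with -0.47. At least 2-fold lower were 5 of 6 measured adipocyte, 4 of 8 macrophage, 2 of 3 neutrophil, 4 of 4 erythroid and 5 of 8 fibroblast markers. In the same units, and over the markers measured on both arrays only, the summed signal went from 31.0 to 18.8 for macrophages, 40.3 to 1.51 for neutrophils, 820.2 to 192.1 for erythroid cells and 328 to 232 for fibroblasts. The adipocyte sum went from 161 to 196 through a single bright marker, Fabp4, with levels of 7.07 and 7.59. The other 5 measured adipocyte markers had log2 ratios between -4.20 and -2.49. None of the measured endothelial (8), B and T cell (3) or skeletal muscle (5) markers was 2-fold different, and 1 of 8 smooth muscle and pericyte markers was lower. The part of these marker differences in the ratios of Map2k6, Map2k7 and the other members was not tested. The labels give heart as the tissue and do not state which parts of it each sample held. In RNA of whole tissue a difference in the tissue taken, fewer cells of a type and less RNA per cell cannot be told apart.

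**Figure D4:**
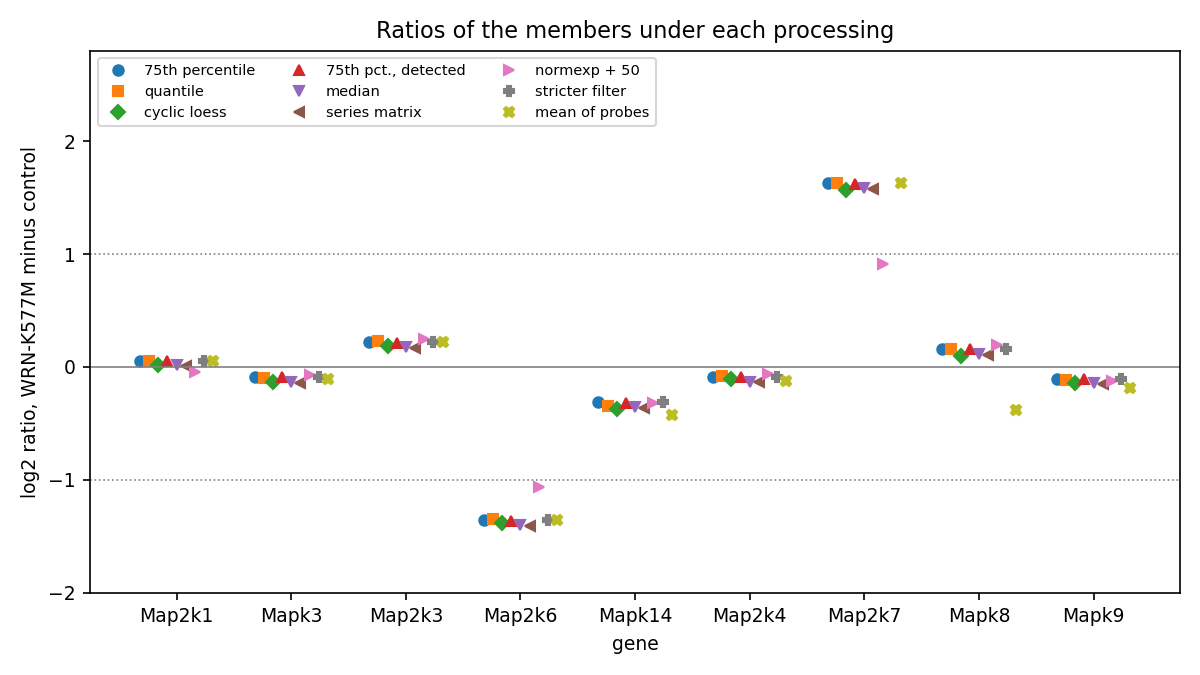
Log2 ratio of each member under the main scaling and 8 other treatments of the same arrays, with dotted lines at 2-fold; Map2k7 has no value under the stricter filter. Map2k6 lies between -1.41 and -1.06 and Map2k7 between 0.92 and 1.63, and Mapk8 changes sign where its probes are averaged, as Map2k1 does after normexp.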

How the data were processed

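Per the file headers, Feature Extraction 11.5.1.1 (Agilent) wrote the intensity values of the 2 spot files: a background-subtracted, detrended processed signal that was not scaled between arrays, its error, and unprocessed spot and background medians. In the deposited series matrix each intensity column equals the processed signal multiplied by 4.12 (control) or 4.86 (WRN-K577M), the same for every spot (checked over 59305 spots), with medians of 79.5 and 79.0. It is linear and uncentred; no label or header states the basis of these factors.

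Control spots and 257 outlier spots were left out, and no spot was saturated. Spots of a probe were averaged, and a probe was well above background where at least 0.5 of its spots were flagged so. Every member probe was read at 1 spot per array, so no member probe's level is an average of spots. Of 23871 RefSeq accessions on the array, 22544 matched a RefSeq table of GRCm38.p6, which named 50.9% of 55681 probes; the array itself is annotated on mm9. The 75th percentile was 256 for the control and 210 for WRN-K577M, and the lowest level well above background -4.73 and -4.42. Between 53.9% and 56.2% of spots were well above background. The number of arrays limits the precision.

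The members and lists were chosen with earlier results of these data known. All member probes are given. In each pathway list the 3 genes with the largest absolute ratio are named, except 1 that is not reported here, and further genes were named after their values were seen. Since 2 arrays give a gene a single ratio, no genes of like pattern are named. Alternatives were cyclic loess, quantile normalization, scaling to the median or to the 75th percentile of detected probes, normexp with an offset of 50 (on the median spot signal, as no mean signal was used), the series matrix, no filter or a stricter one (2 log2 units above the lowest level), the mean of the probes, the probe brightest on the control array (chosen after seeing the data), and a 2-fold threshold. Tools were Python 3.11.15, numpy 2.4.6, pandas 2.3.3, R 4.3.3, limma 3.58.1 and matplotlib 3.10.9. Counting was tested on simulated data.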

Additional observations from a re-analysis of the deposited data

How the results depend on the processing

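Under the 10 alternatives with another scaling, filter or probe choice the median log2 ratio of the members lay between -0.14 and -0.066, and Map2k6 kept its direction and stayed at least 2-fold lower in each. After normexp the ratio of Map2k6 was -1.06 and that of Map2k7 0.92. The stricter filter removed Map2k7 and left 0 members at least 1.5-fold higher, beside 5.62% of all genes kept by that filter. With the mean of the probes Mapk14 had -0.43 and Mapk8 -0.38. With the probe brightest on the control array, an alternative chosen after seeing the data, Mapk8 had -1.17. There 2 members were at least 1.5-fold lower, beside 9.27% of all measured genes. Of the 125 measured pathway genes, 4 were higher and 4 lower at a 2-fold threshold, beside 1.94% and 3.46% of all measured genes. The median of all measured genes moved by 0.10 without a filter on dim probes and by less than 0.1 otherwise. Dim signal limits Map2k7, Mapk8 and the second Mapk14 probe. A value counted as moved when it changed by more than the SD between spots (0.11). No paired analysis was possible because each group has 1 array.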
